A study of Mus musculus with 12 samples.

Results

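The BCL2 family decides whether the outer mitochondrial membrane stays sealed, and 10 of its genes were followed here across mouse fibroblasts labelled wild-type or tafazzin knockout, with and without low oxygen. They were taken by symbol: Bcl2, Bcl2l1 and Mcl1 (guardians), Bax and Bak1 (pore-forming effectors), and Bid, Bad, Bcl2l11, Bbc3 and Pmaip1 (BH3-only members). All 10 were found among the 48709 gene IDs of the count tables, and all 10 had enough reads to be tested. RNA sequencing read counts were available for 12 samples of mouse embryonic fibroblasts (MEFs) of the C57BL/6 strain, 3 in each of 4 groups. The groups were cells labelled WT in normoxia, cells labelled TAZKo in normoxia, and cells of each label after 24 hours in a hypoxia workstation. TAZKo stands for a lack of tafazzin, the enzyme that remodels cardiolipin, and the series describes the WT cells as isogenic. All groups were grown in the same serum-supplemented medium. The oxygen level, the number of embryos or clones behind each label and the way the cells were made are not given in the sources used here. Nothing in the labels says whether the 3 samples of a group came from separate cultures, so p-values measure only the spread between these samples.

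As background, the guardian proteins BCL2, BCL-XL (from Bcl2l1) and MCL1 hold BAX and BAK in check. BH3-only proteins relay stress by occupying the guardians or by activating the effectors directly, after which BAX and BAK permeabilise the membrane and cytochrome c activates the caspases through APAF1. Cardiolipin, the lipid that tafazzin remodels, is known as a docking lipid for the cleaved form of BID at mitochondria. Much of the control of this family acts on the proteins, by cleavage, phosphorylation and turnover, and read counts do not measure that.

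Library totals ran from 21039451 to 31204510 counts, and the members had from 76 counts (Bbc3) to 9032 counts (Mcl1) in a library, so each was well above a floor of 3 counts. Taz, the gene of the label, was not lower in the libraries labelled TAZKo: its CPM (counts scaled to a common library total, with TMM factors) were 38, 33.3 and 32.7 in WT normoxia, 45.8, 39.8 and 41 under TAZKo, and after hypoxia 25.5, 26.4 and 23.5 for WT against 33.6, 32.8 and 35.1. The log2 difference was 0.28 in normoxia (adjusted p = 0.0139; 0.19 to 0.22 and missed without WT normoxia sample 2 or 3 or TAZKo normoxia sample 1) and 0.43 in hypoxia (adjusted p = 0.00112). Directions by genotype below therefore rest on the labels. Sample 1 of WT normoxia lay apart from samples 2 and 3 for several members, with the lowest Bcl2, Mcl1 and Pmaip1 of its group and the highest Bax, Bak1 and Bad. Of 10 fibroblast markers, 9 were expressed, and Thy1 was near absent with 2 to 8 counts. At an adjusted p under 0.05, 5 of these 9 were higher and 2 lower in TAZKo normoxia, and 4 and 2 in hypoxia. Of all genes, 30.4% and 32.8% differed there. The normoxia log2 difference was -1.30 for Col1a1, -1.33 for Col1a2, 1.07 for Pdgfrb and 1.24 for S100a4. Col1a2 was at only 5.33 CPM in WT normoxia, beside 2830 for Col1a1. The summed fibroblast list overlapped in normoxia, with 10400 to 12100 CPM in WT and 11300 to 12200 in TAZKo. Of 26 markers of other cell types, 10 passed the filter on low counts. Ptprc (0 to 1 count), Cdh5 (0 to 2), Cdh1 (0 to 8) and Epcam (0 to 17) were at or near 0. In normoxia the summed epithelial list was at 345 to 431 CPM for WT and 196 to 211 for TAZKo, and in hypoxia at 315 to 345 against 255 to 258. The summed endothelial list was at 18 to 21 CPM against 5.64 to 7.48 in normoxia, and at 14.5 to 20.5 against 3.84 to 5.05 in hypoxia. Within that list Pecam1 went the other way in normoxia (log2 difference 1.38, adjusted p = 0.0389), from only 3 to 8 counts in WT and 12 to 20 in TAZKo. The neural sum was at 33.3 to 40.2 CPM for WT against 22.5 to 28 in normoxia and 44.4 to 61.4 against 35 to 37.2 in hypoxia. The muscle sum was higher for TAZKo, with 3.9 to 5 against 9.49 to 10.5 CPM in normoxia and 3 to 4.59 against 5.78 to 6.85 in hypoxia. The blood and immune sum was higher in hypoxia under both labels, from 2.97 to 3.36 CPM to 6.7 to 8.08 for WT and from 3.51 to 4.42 to 6.05 to 7.58 for TAZKo. Each of these sums came mostly from 1 or 2 genes. In WT normoxia they were Krt14 (mean 244 CPM) and Krt18 (132) in the epithelial list and Tek (16) in the endothelial list. In the other lists they were Tubb3 (35.8, neural), Des (4.18, muscle) and Cd68 (3.06, blood and immune). The part of these marker differences in the results below was not tested. In bulk RNA, fewer cells of a type and less RNA per cell cannot be told apart.

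Levels were compared between genes per kilobase of annotated exon. In WT normoxia, Mcl1 was the most abundant member at 73.5 ± 9.7 CPM per kilobase (SD, n = 3). Bak1 followed at 55.2 ± 5.65, Bax at 30.2 ± 4.04, Bad at 21.1 ± 3.61, Bcl2l1 at 12.7 ± 0.496 and Bcl2l11 at 9.56 ± 1.07 on the same scale. Pmaip1 (6.72 ± 2.06) and Bid (5.54 ± 0.255) overlapped between samples, as did Bcl2 (2.15 ± 0.413) and Bbc3 (2.14 ± 0.569), while the other neighbours in this order did not. Mcl1 made up 80.6% to 84.8% of the summed guardian level per kilobase in WT normoxia and 80.3% to 81.9% in TAZKo hypoxia. Bcl2, the family's namesake, was the scarcest of these 3 guardians per kilobase in every library. Bcl2l10, a further guardian, had 0 to 1 count. The 3 Bcl2a1 copies Bcl2a1a, Bcl2a1b and Bcl2a1d, guardians known from blood cells, had 0 counts in all 12 libraries. Most of the 50-base words (stretches of 50 bases) of each copy also occur in other genes. How shared reads were counted is not given, so these 0 counts do not show that the copies were silent.

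**Figure D1:**
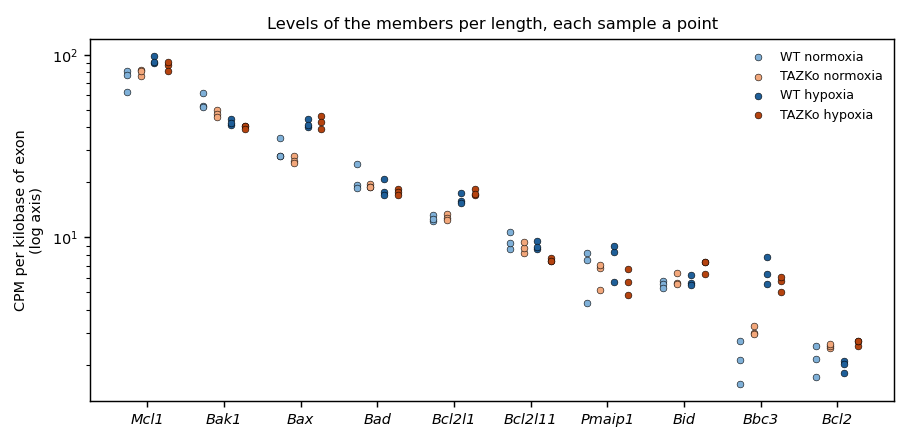
Levels of the 10 members in CPM per kilobase of annotated exon (vertical log axis), ordered by mean level, with each of the 12 libraries as a point coloured by its labelled group. Mcl1 lies highest in every library, and Bcl2 and Bbc3 start lowest in WT normoxia, where Bbc3 is at 1.57 to 2.71 and Bcl2 at 1.73 to 2.56.

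Hypoxia was compared with normoxia within each label to see how the family responds to 24 hours of low oxygen. At an adjusted p under 0.05 (edgeR quasi-likelihood test, adjusted by Benjamini-Hochberg over 14408 genes), 5 of 10 members changed in the libraries labelled WT, where 51.0% of all genes tested changed. They were 4 up and 1 down, against 26.0% and 25.0% of all genes. For TAZKo 6 of 10 changed, against 43.8% of all genes, with 4 up and 2 down against 22.2% and 21.6%. Of all genes called, 51% were higher in WT and 50.7% in TAZKo, which became 38.1% and 36% with library size alone as scaling. The members' shares are near the background. The median size of the change was 0.27 on the log2 scale for the members and 0.31 for all genes in WT, and 0.23 and 0.26 in TAZKo. Bbc3, Bax and Bcl2l1 rose and Bak1 fell under both labels. These 4 genes passed under both labels in every alternative and in each of the 12 fits that left out a library.

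**Figure D2:**
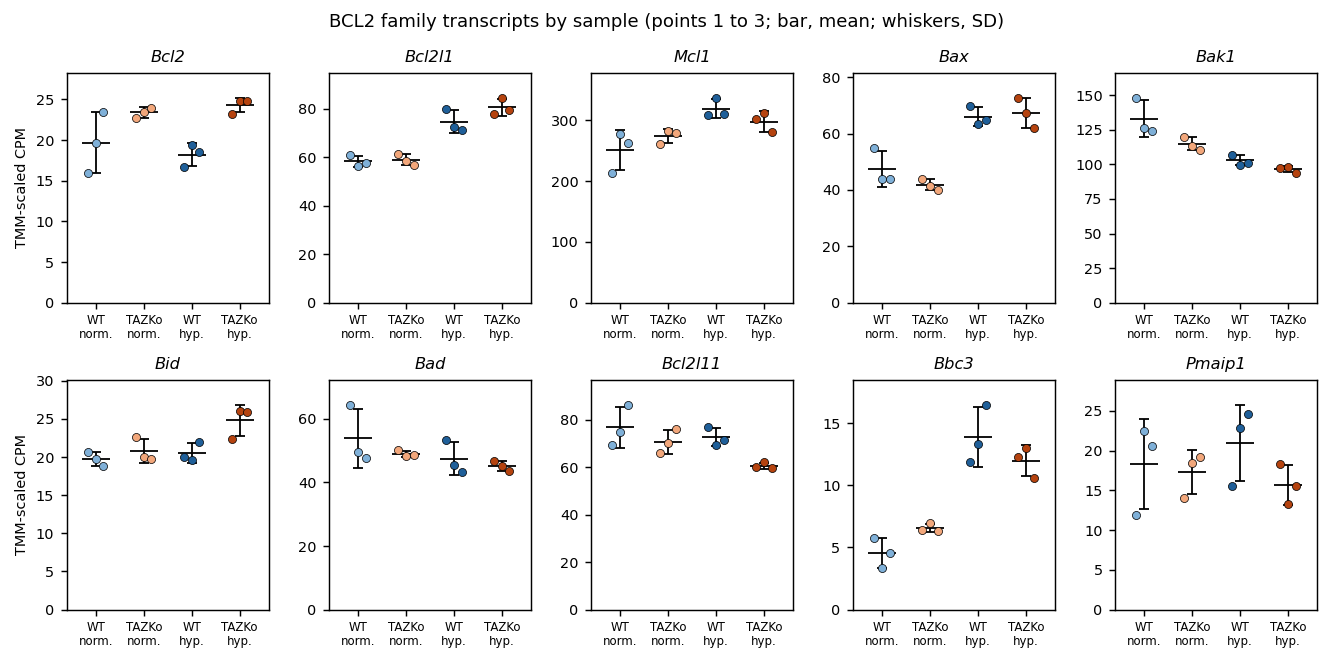
TMM-scaled CPM (vertical axis, from 0) of each member in every library, with the group mean as a bar and the SD as whiskers (n = 3 per group). Bbc3, Bax and Bcl2l1 lie higher and Bak1 lower in each hypoxia group than in the normoxia group of the same label, with no overlap.

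Among the guardians, Bcl2l1 (ENSMUSG00000007659, chromosome 2 from 152780668 to 152831728, GRCm38, minus strand) responded under both labels. It stood at 60.9, 56.5 and 57.6 CPM in WT normoxia and 80, 72.6 and 71.2 in WT hypoxia. For TAZKo it moved from 61.3, 58.6 and 56.9 to 77.9, 84.5 and 79.4 CPM. Every hypoxia library lay above every normoxia library. The rise was 0.35 on the log2 scale in WT (SE 0.064, adjusted p = 0.000429) and 0.45 in TAZKo (SE 0.064, adjusted p = 7.59e-05), which is 1.28-fold and 1.37-fold.

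Mcl1 (ENSMUSG00000038612, chromosome 3 from 95658788 to 95663176), whose short-lived protein binds BAK, BIM and NOXA, was measured at 214, 277 and 263 CPM in WT normoxia and 308, 337 and 311 in WT hypoxia. The rise of 0.34 (SE 0.086, adjusted p = 0.00435) left no overlap between these groups. Without WT hypoxia sample 2 it was 0.24 (adjusted p = 0.0602), and with the 6 WT libraries alone 0.29 (adjusted p = 0.0519). Under TAZKo, Mcl1 was at 261, 283 and 279 CPM in normoxia and 302, 312 and 280 in hypoxia, a difference of 0.12 that missed the threshold (95% interval -0.06 to 0.31, adjusted p = 0.279).

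Bcl2 (ENSMUSG00000057329, chromosome 1 from 106538178 to 106714274) was at 15.9, 19.7 and 23.4 CPM in WT normoxia and 16.7, 19.4 and 18.5 in WT hypoxia. These ranges overlap, and the difference of -0.12 missed the threshold (interval -0.36 to 0.13, adjusted p = 0.418). Without WT normoxia sample 1 it was -0.25 (adjusted p = 0.0241). TAZKo libraries held it at 22.7, 23.4 and 24 CPM in normoxia and 23.2, 24.8 and 24.8 in hypoxia, a difference of 0.05 (interval -0.18 to 0.29). Summed over Bcl2, Bcl2l1 and Mcl1, the guardian level was 77.6, 95.5 and 92.2 CPM per kilobase in WT normoxia and 109, 117 and 109 in WT hypoxia, and 92.1, 98.1 and 96.7 against 108, 113 and 102 in TAZKo.

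The effectors moved in opposite directions. Bax (ENSMUSG00000003873, chromosome 7 from 45461697 to 45466898), whose protein moves from the cytosol to mitochondria, was at 54.9, 43.8 and 43.9 CPM in WT normoxia and 69.8, 63.4 and 64.7 in WT hypoxia. With the TAZKo label it was at 43.9, 41.5 and 40.1 CPM in normoxia and 72.7, 67.4 and 62.1 in hypoxia. The lowest hypoxia library lay above the highest normoxia library under each label. The rise was 0.47 in WT (SE 0.091, adjusted p = 0.000647) and 0.69 in TAZKo (SE 0.091, adjusted p = 4.24e-05). Of its exon bases 12.2% also belong to the annotated gene Gm45808, which had 0 counts in all 12 libraries.

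Bak1 (ENSMUSG00000057789, chromosome 17 from 27019810 to 27029009), whose protein sits in the mitochondrial membrane, was at 148, 126 and 124 CPM in WT normoxia and 107, 99.7 and 101 in WT hypoxia. The TAZKo libraries had 120, 113 and 110 CPM in normoxia and 97.4, 98.2 and 94 in hypoxia. It fell by 0.37 in WT (SE 0.071, adjusted p = 0.000587) and by 0.25 in TAZKo (SE 0.071, adjusted p = 0.0119). Of its exon bases 25.5% are also covered on the opposite strand by Ggnbp1, which had 44 to 86 counts against 2004 to 3575 for Bak1. Of the 50-base words of Bax and Bak1, 13.8% and 18.2% occur in other genes. The library kit named in the labels does not mark strand, so reads of overlapping genes on opposite strands cannot be told apart.

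Per kilobase, Bax stood at 0.565, 0.531 and 0.541 of the Bak1 level in WT normoxia and at 0.560, 0.559 and 0.554 in TAZKo normoxia. In hypoxia the ratio was 1, 0.972 and 0.975 in WT and 1.14, 1.05 and 1.01 in TAZKo. The ratio was at most 0.565 in the 6 normoxia libraries and at least 0.972 in the 6 hypoxia libraries. The summed effector level was 85.3 ± 9.69 CPM per kilobase in WT normoxia and 84.4 ± 3.63 in WT hypoxia, with overlapping ranges. It was 74.1 ± 3.22 and 82.9 ± 4.12 for TAZKo (SD, n = 3), whose ranges did not overlap.

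Bbc3, which encodes PUMA, a BH3-only protein known as a target of p53 and as a binder of all the guardians, had the largest response of the 10 members. Bbc3 (ENSMUSG00000002083, chromosome 7 from 16308393 to 16318205) had 130, 76 and 125 counts in WT normoxia and 237, 297 and 454 in WT hypoxia. Scaled, this was 5.75, 3.33 and 4.53 CPM against 11.9, 13.3 and 16.5 CPM. Its TAZKo values were 6.4, 6.93 and 6.31 CPM in normoxia and 12.3, 13 and 10.6 in hypoxia. The lowest hypoxia library lay above the highest normoxia library under each label. The rise was 1.62 on the log2 scale in WT (SE 0.168, adjusted p = 3.15e-06), or 3.08-fold, and 0.87 in TAZKo (SE 0.161, adjusted p = 0.000637), or 1.83-fold. The file names put the samples on lanes 4 and 5. Under each label, lane 4 held 2 normoxia libraries and 1 hypoxia library, and lane 5 held 1 and 2. A hypoxia response within a lane therefore rests on 1 library on 1 side. In lane 4 the difference of mean log2 CPM was 1.42 in WT and 0.88 in TAZKo, and within lane 5 it was 1.70 and 0.89. Bbc3 made up 3.57% to 5.79% of the summed BH3-only level per kilobase in WT normoxia and 11.8% to 15.9% in WT hypoxia, and 6.75% to 7.54% and 11.8% to 14% in TAZKo. The sum over the 5 BH3-only members itself was 45 ± 1.49 CPM per kilobase in WT normoxia and 47.6 ± 1.14 in WT hypoxia, with Bad and Bcl2l11 at higher levels per kilobase than Bbc3.

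The other 4 BH3-only members moved less. Bid (ENSMUSG00000004446, chromosome 6 from 120891930 to 120916853), which caspase-8 cleaves into its active form, was at 20.6, 19.7 and 18.8 CPM in WT normoxia and 20, 19.6 and 22 in WT hypoxia. These ranges overlap (log2 difference 0.06, interval -0.12 to 0.25, adjusted p = 0.567). For TAZKo they were 22.6, 20 and 19.8 CPM in normoxia and 22.4, 26.1 and 25.9 in hypoxia. There Bid rose by 0.26 (SE 0.084, adjusted p = 0.0237), although hypoxia sample 1 lay within the normoxia range. That call was lost when any of 5 libraries was left out: WT normoxia sample 2, TAZKo normoxia sample 2 or 3, and TAZKo hypoxia sample 2 or 3 (log2 0.19 to 0.23, adjusted p = 0.0502 to 0.142). It was also lost with library size alone as scaling (0.16, adjusted p = 0.144) and with no filter (0.23, adjusted p = 0.0769). Its difference of mean log2 CPM was 0.07 within lane 4 and 0.39 within lane 5. Of its 50-base words 24.5% occur in other genes. Of the exon bases of Bid 17.7% overlap Bcl2l13 on the opposite strand, which had 2101 to 3395 counts against 400 to 754 for Bid and did not pass the test in either hypoxia comparison (adjusted p = 0.924 and 0.668).

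Bcl2l11 (ENSMUSG00000027381, chromosome 2 from 128126038 to 128162547) encodes BIM, a strong activator of the effectors. It was at 69.5, 74.6 and 86.3 CPM in WT normoxia and 77, 69.4 and 71.4 in WT hypoxia, which overlap (log2 difference -0.08, interval -0.26 to 0.09, adjusted p = 0.422). With TAZKo all 3 hypoxia samples (60, 62.1 and 59.8 CPM) lay below all 3 normoxia samples (66.1, 70 and 76.1 CPM). The fall was 0.22 in size (log2 difference -0.22, SE 0.081, adjusted p = 0.0394). It missed the threshold without TAZKo normoxia sample 3 (-0.20), TAZKo hypoxia sample 1 (-0.24) or TAZKo hypoxia sample 3 (-0.24), with adjusted p = 0.0623 to 0.101.

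Bad (ENSMUSG00000024959, chromosome 19 from 6941861 to 6951899), which phosphorylation keeps bound to 14-3-3 proteins, was at 64.5, 49.6 and 47.6 CPM in WT normoxia and 53.4, 45.6 and 43.4 in WT hypoxia. The difference of -0.18 missed the threshold (interval -0.41 to 0.04, adjusted p = 0.162). It passed without WT normoxia sample 2 (-0.29), WT normoxia sample 3 (-0.33) or WT hypoxia sample 1 (-0.33), and also with library size alone (-0.29) or with no filter (-0.26), at adjusted p = 0.0136 to 0.0484. TAZKo values were 50.2, 48.4 and 48.5 CPM in normoxia and 46.8, 45.3 and 43.7 in hypoxia. Those groups did not overlap, and the difference of -0.12 missed the threshold (interval -0.34 to 0.11, adjusted p = 0.404). Of its exon bases 20.5% overlap Gpr137 on the opposite strand, which had 456 to 888 counts and was lower in hypoxia by 0.42 in size in WT (log2 difference -0.42, adjusted p = 0.000285).

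Pmaip1 (ENSMUSG00000024521, chromosome 18 from 66458533 to 66465565) encodes NOXA, which mainly binds MCL1. It was at 11.9, 22.5 and 20.6 CPM in WT normoxia and 15.6, 22.8 and 24.6 in WT hypoxia. Its TAZKo values were 14.1, 18.5 and 19.2 before and 18.3, 13.3 and 15.5 after hypoxia. The ranges overlap under both labels, and the differences of 0.20 in WT (interval -0.27 to 0.67) and -0.14 in TAZKo (interval -0.62 to 0.33) missed the threshold. Its intervals were the widest of the 10 members.

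**Figure D3:**
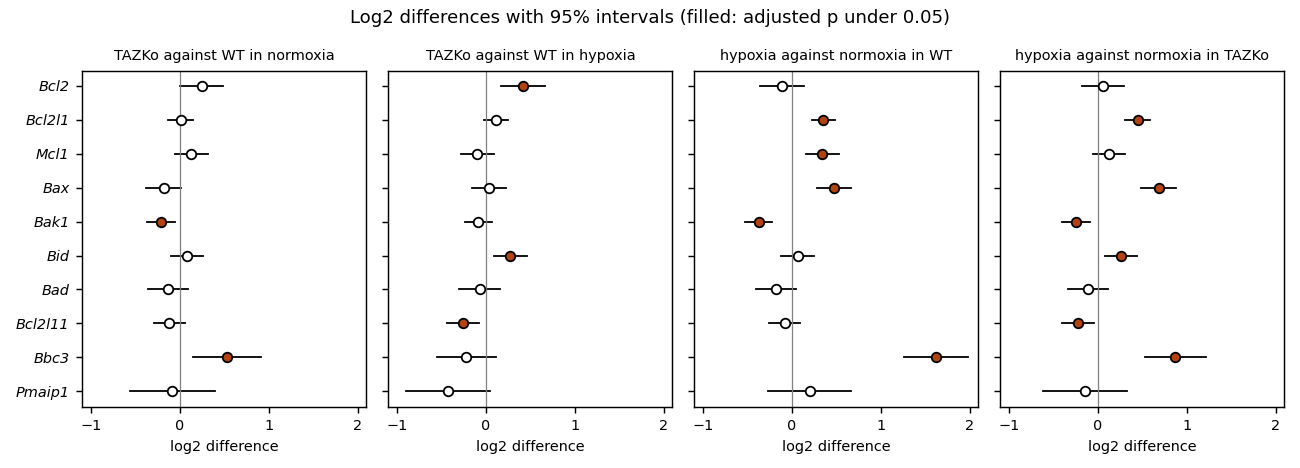
Log2 differences of the 10 members (horizontal axis) in 4 comparisons, as points with 95% intervals, filled where the adjusted p is under 0.05 in the edgeR quasi-likelihood test. In the hypoxia panels Bbc3 lies farthest from 0 (1.62 in WT and 0.87 in TAZKo), and in the genotype panels no member differs by more than 0.53 in size.

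The sequences before the starts of 4 members are shown because 3 of them (Bbc3, Bax and Bcl2l1) rose under both labels and Bcl2l11 did not. Each is the 250 bases before a RefSeq start (GRCm38.p6), 5′ to 3′ on the gene's strand, with capitals marking the HIF core motif (ACGTG or GCGTG on either strand; in Bax the palindrome CACGTG matches on both). They lie at chr7:16309333-16309582 (plus strand, Bbc3), chr7:45466899-45467148 (minus, Bax), chr2:152831729-152831978 (minus, Bcl2l1) and chr2:128125788-128126037 (plus, Bcl2l11). Where a gene has several starts, a window with a core was shown: Bcl2l1 has 3 starts and only the one shown holds a core, Bcl2l11 has 2 and only the one shown does, and all 3 of Bbc3 do.
Bbc3: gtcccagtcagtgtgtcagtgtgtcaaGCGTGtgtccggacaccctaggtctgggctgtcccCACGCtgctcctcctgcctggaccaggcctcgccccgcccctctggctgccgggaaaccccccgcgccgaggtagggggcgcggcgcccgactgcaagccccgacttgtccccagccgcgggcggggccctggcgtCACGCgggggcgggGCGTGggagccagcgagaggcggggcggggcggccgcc
Bax: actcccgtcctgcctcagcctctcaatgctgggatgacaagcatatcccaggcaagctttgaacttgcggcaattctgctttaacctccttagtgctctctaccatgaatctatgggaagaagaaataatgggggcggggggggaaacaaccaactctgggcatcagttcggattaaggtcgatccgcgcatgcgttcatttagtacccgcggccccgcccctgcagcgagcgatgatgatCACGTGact
Bcl2l1: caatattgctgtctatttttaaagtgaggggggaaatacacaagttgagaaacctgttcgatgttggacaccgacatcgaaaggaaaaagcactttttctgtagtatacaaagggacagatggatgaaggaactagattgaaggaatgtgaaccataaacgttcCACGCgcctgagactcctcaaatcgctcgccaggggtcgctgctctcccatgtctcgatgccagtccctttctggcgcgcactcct
Bcl2l11: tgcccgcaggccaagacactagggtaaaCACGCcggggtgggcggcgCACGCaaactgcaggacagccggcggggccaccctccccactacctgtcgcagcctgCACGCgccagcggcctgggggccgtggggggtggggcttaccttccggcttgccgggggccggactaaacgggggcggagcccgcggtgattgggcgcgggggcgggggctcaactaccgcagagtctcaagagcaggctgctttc
The Bbc3 window holds cores that begin 223, 188, 52 and 38 bases before the start, and the Bax palindrome begins 9 bases before it. The Bcl2l1 window holds a core 86 bases before the start, and the Bcl2l11 window holds cores 222, 203 and 146 bases before it. Of 15 starts of the 9 members in the promoter table, 8 had a core, against 38.6% of 32851 windows of the same length over all genes. Members with a core were Bcl2l1, Bax, Bad, Bcl2l11 and Bbc3, so the motif was present both in members that rose and in members that did not. No core was found in the windows of Mcl1, Bcl2, Bak1 or Bid. All 250 bases of the Bak1 window lie in annotated exons, as do those of the Bcl2l1 windows not shown and 230 of the second Bad window. The Bbc3 window shown begins inside the annotated gene, which starts at 16308393. For Bcl2, Mcl1 and every Bbc3 start, the bases just after the start were not found in an annotated transcript of the gene. Some windows are therefore not the sequence before an annotated start. The p53 decamer motif was found in the Bax window and in no other window of the 15, against 7.13% of all windows. A match describes letters in a window and is not a binding site.

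The comparison of genotypes at normal oxygen asked whether the family differs without the treatment. Of 10 members 2 passed an adjusted p of 0.05, where 30.4% of all genes did. For TAZKo 1 was higher and 1 lower, against 15.6% and 14.9% of all genes. Bbc3 was higher by 0.53 (SE 0.177, interval 0.15 to 0.91, adjusted p = 0.0372), with 6.31 to 6.93 CPM in TAZKo against 3.33 to 5.75 in WT. Bak1 was lower, by a log2 difference of -0.21 (SE 0.070, interval -0.37 to -0.06, adjusted p = 0.0343), with 110 to 120 CPM against 124 to 148. Both calls were near the threshold. That of Bbc3 was lost in 9 of 12 fits that left out a library, all but those without WT normoxia sample 1, WT hypoxia sample 1 or WT hypoxia sample 3, with log2 values of 0.32 (without WT normoxia sample 2) to 0.52 and adjusted p = 0.0551 to 0.173. That of Bak1 was lost without WT normoxia sample 1 (-0.13, adjusted p = 0.0804) or TAZKo normoxia sample 3 (-0.22, adjusted p = 0.067). With the 6 normoxia libraries alone neither passed (adjusted p = 0.074 for Bbc3 and 0.109 for Bak1). Same-numbered samples deviated together in this comparison, and with the replicate number as a block 4 members passed: Bcl2 (0.25, adjusted p = 0.0409) and Bax (-0.18, adjusted p = 0.0387) joined Bbc3 and Bak1. Without the block Bcl2 was at 0.24 (adjusted p = 0.117; without WT normoxia sample 3 it was 0.36, adjusted p = 0.0198) and Bax at -0.18 (adjusted p = 0.148).

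For the other members in normoxia the intervals limit the size of a difference. They ran from -0.13 to 0.15 for Bcl2l1, -0.06 to 0.31 for Mcl1, -0.10 to 0.26 for Bid, -0.29 to 0.06 for Bcl2l11, -0.36 to 0.09 for Bad and -0.56 to 0.39 for Pmaip1. Bad and Pmaip1 lie on chromosomes whose genes were lower as a whole in the libraries labelled TAZKo. The median over the 492 genes tested on chromosome 19 was -0.27, and that over the 360 genes on chromosome 18 was -0.22, against 0.01 over all genes. Mcl1, at 0.13, lies on chromosome 3, where the median over 748 genes was 0.13. The part of these chromosome-wide differences in the values of Bad, Pmaip1 and Mcl1 was not tested.

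After hypoxia 3 of 10 members differed between the labels, where 32.8% of all genes did. With TAZKo 2 were higher and 1 lower, against 15.8% and 16.9% of all genes. Bcl2 was higher by 0.42 (SE 0.113, adjusted p = 0.0117), or 1.33-fold, with 23.2 to 24.8 CPM against 16.7 to 19.4. Bid was higher by 0.28 (SE 0.085, adjusted p = 0.0231), with 22.4 to 26.1 CPM against 19.6 to 22. Bcl2l11 was lower, by a log2 difference of -0.26 (SE 0.082, adjusted p = 0.0254), with 59.8 to 62.1 CPM against 69.4 to 77. A guardian was thus higher, an activating BH3-only transcript higher and another lower, and in each case all TAZKo libraries lay on 1 side of all WT libraries. The same held for Bak1, which missed the threshold (94 to 98.2 CPM against 99.7 to 107, adjusted p = 0.388). The share of all genes without overlap was not computed.

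These 3 calls depended on single libraries. Without WT hypoxia sample 1 none of the 3 passed: Bcl2 was at 0.35 (adjusted p = 0.0526), Bid at 0.24 (adjusted p = 0.0691) and Bcl2l11 at -0.23 (adjusted p = 0.0718). Bid also missed the threshold without WT hypoxia sample 2, TAZKo hypoxia sample 2 or TAZKo hypoxia sample 3 (0.23 in each, adjusted p = 0.0919 to 0.0995), and Bcl2l11 without TAZKo hypoxia sample 1 or 3 (-0.26 in each, adjusted p = 0.0665 and 0.068). Bcl2l13, which overlaps Bid on the opposite strand, differed the other way (-0.19, adjusted p = 0.0224; missed without WT hypoxia sample 1 or TAZKo hypoxia sample 1 or 3, at -0.16 to -0.19). Bbc3, the member with the higher normoxia level in TAZKo, was at -0.22 in hypoxia (interval -0.55 to 0.11, adjusted p = 0.294), with 10.6 to 13 CPM in TAZKo against 11.9 to 16.5 in WT. Pmaip1 was at -0.43 (interval -0.90 to 0.04, adjusted p = 0.158). It passed with no filter (-0.41, adjusted p = 0.000951) and without WT normoxia sample 1 (-0.44, adjusted p = 0.036). Its difference of mean log2 CPM was 0.23 within lane 4 (1 library per label) and -0.72 within lane 5 (2 per label). The median of chromosome 18 was -0.28 in this comparison. Intervals for the remaining members ran from -0.02 to 0.25 for Bcl2l1, -0.28 to 0.09 for Mcl1, -0.16 to 0.22 for Bax, -0.24 to 0.07 for Bak1 and -0.30 to 0.16 for Bad.

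The difference between the hypoxia responses was tested as an interaction, TAZKo minus WT. No member passed an adjusted p of 0.05 in the edgeR quasi-likelihood test, against 2.43% of all genes (0.722% higher and 1.71% lower), and 1 (Bbc3) had an unadjusted p under 0.05. DESeq2 called 0 as well, with 1 at an unadjusted p under 0.05. The rise of Bbc3 was smaller in the libraries labelled TAZKo by 0.75 in size (log2 difference -0.75, SE 0.233, interval -1.25 to -0.25, unadjusted p = 0.00666, adjusted p = 0.126). Of the alternatives, it passed with no filter (-0.70, adjusted p = 0.00744) and without WT normoxia sample 1 (-0.94, adjusted p = 0.0228), and the adjusted p ranged up to 0.307. Of all genes called in the interaction 29.7% were higher, or 40.7% with upper quartile scaling. For the others the interaction was -0.34 for Pmaip1 (interval -1.01 to 0.33), -0.22 for Mcl1 (-0.48 to 0.04), 0.21 for Bax (-0.06 to 0.49), 0.19 for Bid (-0.06 to 0.45) and 0.17 for Bcl2 (-0.17 to 0.51). It was -0.14 for Bcl2l11 (-0.39 to 0.11), 0.13 for Bak1 (-0.09 to 0.34), 0.10 for Bcl2l1 (-0.10 to 0.29) and 0.07 for Bad (-0.25 to 0.39). A call in 1 genotype and not in the other, as for Mcl1, Bid and Bcl2l11, was therefore not shown to be a difference between them.

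**Figure D4:**
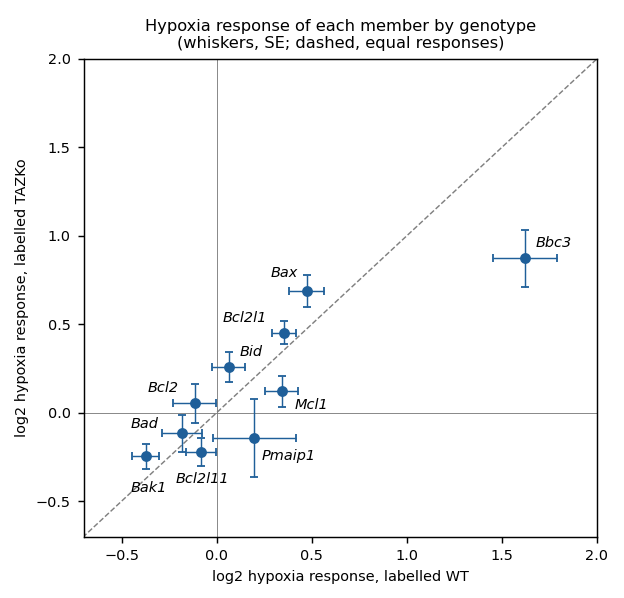
Log2 hypoxia response of each member in the libraries labelled WT (horizontal axis) and labelled TAZKo (vertical axis), with SE whiskers and a dashed line of equal responses. Bbc3 lies below the line (1.62 against 0.87), and the other 9 members lie within 0.34 of it in the fitted interaction.

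The rest of the family gives the setting of these 10. Of 15 further members on the list, 7 were expressed, and Bik and Hrk, BH3-only genes, had at most 1 and 2 counts in any library. Of the 7, 5 changed with hypoxia in WT (3 up, 2 down) and 5 in TAZKo (3 up, 2 down), against 51.0% and 43.8% of all genes. The median change with its sign was 0.09 and 0.05. The median size of the change was 0.51 and 0.41, against 0.31 and 0.26 for all genes. Bnip3 and Bnip3l, known targets of HIF-1 that act as mitophagy receptors, rose most. Bnip3 went from 6.58 ± 0.556 to 96.4 ± 3.93 CPM in WT and from 4.59 ± 0.284 to 92 ± 2.43 in TAZKo (SD, n = 3). Its log2 rise was 3.87 (adjusted p = 4.46e-13) in WT and 4.32 (adjusted p = 4.29e-13) in TAZKo. Bnip3l rose by 2.23 (adjusted p = 5.99e-08) and 2.17 (adjusted p = 1.24e-07). Of their 50-base words, 62.4% and 23.4% are found in other genes too, so both counts are uncertain.

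Bmf, a BH3-only gene whose protein binds the dynein light chain, differed by genotype in both conditions. It was at 51.7, 44.1 and 52.1 CPM in WT normoxia and 33.3, 31.2 and 35.7 in TAZKo normoxia, a log2 difference of -0.56 (adjusted p = 0.0179; -0.55 and 0.0506 without TAZKo normoxia sample 2). In hypoxia it was at 48.1, 29.2 and 27.3 CPM in WT and 21.2, 22.4 and 19.9 in TAZKo, a difference of -0.71 (adjusted p = 0.00519). Sample 1 of WT hypoxia stayed at the normoxia level while samples 2 and 3 were lower, and without it the difference was -0.43 and still passed. Bmf also fell with hypoxia, by 0.51 in size in WT (log2 difference -0.51, adjusted p = 0.0188) and 0.66 in TAZKo (log2 difference -0.66, adjusted p = 0.00599). Without WT hypoxia sample 2 or 3 the WT fall missed the threshold (-0.45 and -0.41, adjusted p = 0.0517 and 0.0536), and without sample 1 it was -0.86. Bok, an effector-like member, was at 39.3 ± 7.01 CPM in normoxia and 50.2 ± 6.08 in hypoxia for WT, and at 47.5 ± 4.17 and 63.1 ± 4.02 for TAZKo. It rose with hypoxia by 0.41 in TAZKo (adjusted p = 0.012; missed without TAZKo normoxia sample 3 or TAZKo hypoxia sample 1 or 2, at 0.31 to 0.37). In WT its rise of 0.35 (adjusted p = 0.0239) passed in 3 of 12 fits that left out a library (those without WT normoxia sample 1, TAZKo normoxia sample 3 or WT hypoxia sample 2; the others gave 0.20 to 0.33). Its higher level in TAZKo hypoxia (0.33, adjusted p = 0.0459) passed in 4 of 12 (those without a WT normoxia sample or WT hypoxia sample 1; the others gave 0.26 to 0.37). Bcl2l12 fell by 0.55 in WT (adjusted p = 0.00209) and by 0.39 in TAZKo (adjusted p = 0.019), and Bcl2l2, the guardian BCL-W, passed no comparison at 38.8 to 43.2 CPM in group means.

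Downstream of the pore, the list of the apoptosome, caspases and their inhibitors had 20 of 20 genes expressed. With hypoxia 6 rose and 5 fell in WT, and 3 rose and 8 fell in TAZKo, so 11 of 20 changed in each, where 51.0% and 43.8% of all genes did (medians -0.03 and -0.12, against 0.01 and -0.01 over all genes). Htra2, a mitochondrial protease that counters caspase inhibitors once released, changed by -1.06 in WT (adjusted p = 1.11e-06) and -0.78 in TAZKo (adjusted p = 2.54e-05). Endog, a mitochondrial nuclease, rose by 0.94 (adjusted p = 1.23e-05) and 0.81 (adjusted p = 6.57e-05) from a low level of 3.93 ± 0.478 CPM in WT and 3.83 ± 0.137 in TAZKo. Diablo, which releases caspases from their inhibitors, changed by -0.42 in WT (adjusted p = 3.94e-05) and -0.57 in TAZKo (adjusted p = 3.57e-06). Of the 50-base words of Diablo, Htra2 and Endog, 68.9%, 44.0% and 32.8% occur in other genes.

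By genotype, Birc3, an inhibitor of apoptosis induced by NF-kB, was lower in TAZKo by 1.26 in size in normoxia (log2 difference -1.26, adjusted p = 0.000247) and 2.02 in hypoxia (log2 difference -2.02, adjusted p = 4.35e-06). Its level in normoxia was 2.86 ± 0.403 CPM for WT and 1.21 ± 0.269 for TAZKo, and in hypoxia 3.88 ± 0.281 and 0.933 ± 0.22. Apaf1, the scaffold of the apoptosome, was higher in TAZKo normoxia by 0.33 (adjusted p = 0.0103; 0.26 and 0.076 without TAZKo normoxia sample 3), and Parp1, a caspase substrate, was lower in normoxia (-0.35, adjusted p = 0.000848) and in hypoxia (-0.30, adjusted p = 0.00272). In hypoxia Aifm1, a mitochondrial flavoprotein, was lower in TAZKo (-0.31, adjusted p = 0.00136). In all, 5 of 20 genes differed in normoxia (2 higher, 3 lower) and 6 in hypoxia (1 higher, 5 lower), where 30.4% and 32.8% of all genes did, with medians of -0.04 and -0.03.

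In the death receptor list 10 of 13 genes were expressed, while Fasl and Tnf had at most 1 and 2 counts. With hypoxia Tnfrsf12a, the receptor of the ligand TWEAK, rose by 1 in WT (adjusted p = 2.09e-06) and 0.67 in TAZKo (adjusted p = 0.000113). Tnfsf12, which encodes TWEAK, changed by -0.80 (adjusted p = 8.89e-05) and -0.54 (adjusted p = 0.00171), though 49.0% of its 50-base words occur in other genes. Tnfrsf1a, the TNF receptor, changed by -0.69 in WT (adjusted p = 6.21e-05) and -0.28 in TAZKo (adjusted p = 0.0321; missed without TAZKo normoxia sample 1 or TAZKo hypoxia sample 1 or 3, at -0.28 to -0.31). In all, 3 rose and 3 fell in WT, and 2 rose and 2 fell in TAZKo, so 6 and 4 of 10 changed, where 51.0% and 43.8% of all genes did. Between genotypes, Tradd, an adaptor of that receptor, was lower in TAZKo in normoxia (-0.48, adjusted p = 0.0015) and in hypoxia (-0.41, adjusted p = 0.00419). In TAZKo normoxia Cflar, the caspase-8 inhibitor, was higher (0.38, adjusted p = 0.00879; 0.28 and 0.0778 without TAZKo normoxia sample 3). Tnfrsf1a was lower there (-0.28, adjusted p = 0.043; missed without WT normoxia sample 1, at -0.19, or TAZKo normoxia sample 2 or 3, at -0.31 and -0.29). In hypoxia Tnfrsf10b, the TRAIL receptor, was higher by 0.43 (adjusted p = 0.00121) and Traf2 by 0.31 (adjusted p = 0.00622). In all, 2 were higher and 2 lower in normoxia and 2 higher and 1 lower in hypoxia, where 30.4% and 32.8% of all genes differed.

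The last list held regulators of the BH3-only genes and of the BCL2 proteins. Like the other lists it was chosen with earlier results of these data known, so its shares describe the list and do not test it. Of its 15 expressed genes 9 rose and 1 fell in WT, where 26.0% of all genes rose and 25.0% fell. In TAZKo 9 rose and 1 fell, where 22.2% rose and 21.6% fell, with medians of 0.27 and 0.33 against 0.01 and -0.01 over all genes. Ddit3 (CHOP), a stress factor known to act on Bbc3 and Bcl2l11, was at 21.2, 18 and 16 CPM in WT normoxia and 85.1, 86.6 and 92.6 in WT hypoxia. In TAZKo it was at 45.7, 45.6 and 42.5 CPM in normoxia and 131, 113 and 113 in hypoxia. It rose by 2.26 in WT (adjusted p = 5.84e-10) and 1.41 in TAZKo (adjusted p = 5.33e-08), and it was higher in TAZKo in normoxia by 1.28 (adjusted p = 4.05e-07) and in hypoxia by 0.43 (adjusted p = 0.00219).

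Atf4, which acts upstream of Ddit3, rose by 1.10 in WT (adjusted p = 1.65e-07) and 0.38 in TAZKo (adjusted p = 0.00198), and was higher in TAZKo normoxia by 0.67 (adjusted p = 3.82e-05). Mdm2, a p53 target that also restrains p53, rose by 1.49 (adjusted p = 1.71e-07) and 0.96 (adjusted p = 1.42e-05), and was higher in TAZKo normoxia by 0.40 (adjusted p = 0.0148; missed without TAZKo normoxia sample 2 or 3, at 0.36 and 0.37). Foxo3, a factor known to act on Bcl2l11 and Bbc3, rose by 0.97 in WT (adjusted p = 2.64e-07) and 0.92 in TAZKo (adjusted p = 6.68e-07). Fbxw7, a ubiquitin ligase of MCL1, was higher in TAZKo hypoxia by 0.30 (adjusted p = 0.0284; missed without WT hypoxia sample 1 or 2 or TAZKo hypoxia sample 1 or 3, at 0.22 to 0.28). Between genotypes, 4 of the 15 regulators were higher and 0 lower in TAZKo normoxia, and 2 higher and 0 lower in hypoxia. Fbxw7 was among the 4 in normoxia (0.27, adjusted p = 0.0474). Its call there passed in 0 of 12 fits that left out a library and in 4 of 9 other settings. Of all genes 30.4% and 32.8% differed (15.6% and 15.8% higher), and the list medians were 0.05 and 0.01. The interaction passed for Ddit3 and Atf4 and missed the threshold for Bbc3 and Mdm2 (-0.53, adjusted p = 0.107 for Mdm2).

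**Figure D5:**
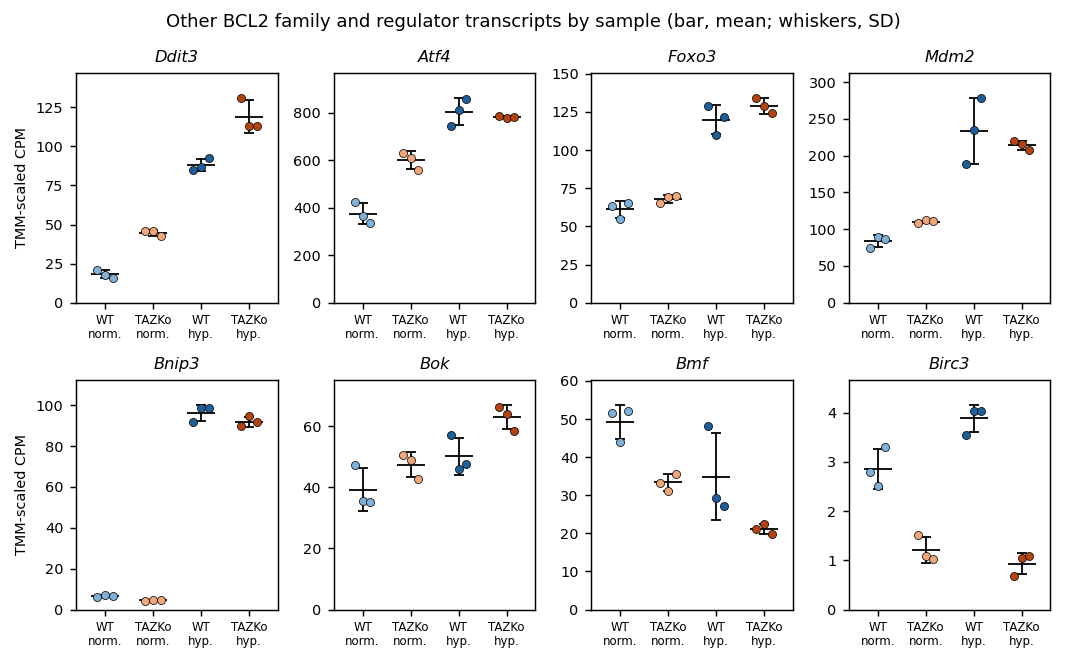
TMM-scaled CPM (vertical axis, from 0) of 4 regulators (upper row) and 4 further apoptosis genes (lower row) in every library, with the group mean as a bar and the SD as whiskers (n = 3 per group). Ddit3, Atf4 and Mdm2 are higher in TAZKo normoxia than in WT normoxia, and Birc3 is lower in the TAZKo groups (1.21 and 0.933 CPM) than in the WT groups (2.86 and 3.88 CPM).

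Genes with the most similar pattern to a member were named by Pearson's r of log2 CPM over the 12 libraries, as a description with no test, since the libraries fall into 4 groups and share their depth and scaling. They were Elmsan1 for Bbc3 (r = 0.981), Lamtor1 for Bax (r = 0.993), Nmt1 for Bak1 (r = 0.993), Atp6ap1 for Bcl2l1 (r = 0.986) and Crk for Mcl1 (r = 0.966). Members themselves followed each other unevenly, with Bcl2l1 and Bax at r = 0.927 and Bcl2l1 and Bbc3 at 0.854. Mcl1 and Bak1 were at -0.849, and Bid and Bcl2l11 at -0.831.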

How the data were processed

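The authors deposited tables of unnormalised counts, 1 per sample, with a whole number for each Ensembl gene ID. The build is mm10, per the submitters' processing notes. The aligner, the counting program and its treatment of shared and strand-specific reads are not given in the sources used here. Of 48709 IDs, 48349 were matched by ID to a symbol. Coordinates and exon lengths come from GENCODE M21 (GRCm38, the build mm10 names), and promoter windows from RefSeq (GRCm38.p6). The members and gene lists were chosen with earlier results of these data known.

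Genes were filtered with filterByExpr over the 4 groups, scaled by TMM and fitted over all 12 samples with edgeR 4.0.16 (R 4.3.3) as a quasi-likelihood model with 1 coefficient per group. Adjusted p-values are Benjamini-Hochberg values over the 14408 genes tested, with a threshold of 0.05. SE is the log2 difference divided by the square root of F, and 95% intervals use the t distribution of the fit. The median biological coefficient of variation was 8.62%. Log2 CPM used a prior count of 2. In simulated counts of the normoxia genotype comparison (14169 genes), 67 genes were changed 1.5-fold, 67 genes 2-fold and 66 genes 4-fold. Of these, 59.7%, 91% and 100% were recovered, so small differences can be missed. In the data 30.4% of genes were called in that comparison, a far larger share than was changed in the simulation. The adjustment is stricter when few genes change, so these rates do not carry over to the tests above.

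Besides the members, the text names every expressed gene of the further BCL2 family list and, from the other lists, up to 3 genes per comparison with the largest called change and no overlap between groups; some genes that this rule picks are not reported here. For 5 members it also names the gene with the highest correlation over the 12 samples. Pairing was checked from the replicate numbers in the titles, by correlating deviations from the group means. All 3 same-numbered pairs exceeded 0.1 for the normoxia genotypes (0.35, 0.15 and 0.23) and for WT normoxia with WT hypoxia (0.37, 0.20 and 0.15), and not for the other comparisons. Lanes were read from the file names. Alternatives were other scalings, DESeq2 1.42.0, other filters, the replicate block, lane, fewer groups and leaving out each sample.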

Additional observations from a re-analysis of the deposited data

Results flagged for a closer look

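The hypoxia responses of 3 named genes differed between the labels in the edgeR interaction test. The rise of Ddit3 was smaller in the libraries labelled TAZKo by a log2 difference of -0.85 (SE 0.131, adjusted p = 0.00446), and that of Atf4 by -0.72 (SE 0.117, adjusted p = 0.00554). Both passed in all 12 fits that left out a library and in all 8 other alternatives that gave a value. Both genes were also higher in TAZKo normoxia, and Atf4 ended at similar levels in hypoxia, 806 ± 57.8 CPM in WT and 783 ± 5.78 in TAZKo (SD, n = 3). On the log2 scale the rise of Bnip3 was larger in TAZKo by 0.45 (SE 0.107, adjusted p = 0.045). This call passed in 2 of 12 fits that left out a library, those without WT normoxia sample 1 or WT hypoxia sample 1 (0.42 to 0.52 over all 12, adjusted p up to 0.105). Bnip3 was lower in TAZKo normoxia (-0.52, adjusted p = 0.000528) and did not pass in hypoxia (-0.07, adjusted p = 0.451). In mean CPM, Bnip3 went from 6.58 to 96.4 in WT and from 4.59 to 92 in TAZKo. Ddit3 went from 18.4 to 88.1 in WT and from 44.6 to 119 in TAZKo. For Bnip3 and Ddit3, which label rose more therefore depends on the scale. Atf4 went from 376 to 806 CPM in WT and from 601 to 783 in TAZKo, so WT rose more on both scales.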

How the results depend on the processing

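The number of members called moved with the processing mainly between genotypes. In normoxia it was 2, against 4 with the replicate block, 0 with only the groups compared, and 0 to 2 when a library was left out. In hypoxia it was 3, with 0 to 4 when a library was left out. Under hypoxia it was 5 in WT and 6 in TAZKo, and 4 to 6 in the alternatives for each. For the interaction 0 became 1 (Bbc3) with no filter, and it was 0 to 1 when a library was left out. Apart from Bcl2 and Bax in normoxia, no call of a member changed with the replicate block. With library sizes as the only scaling, the hypoxia response of the median gene shifted by -0.106 (WT) and -0.094 (TAZKo).

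Differences near 0 changed sign, and the cause was not tested. For Bcl2l1 in normoxia the log2 difference of genotypes was -0.004 with DESeq2 size factors and with the DESeq2 test, -0.005 with upper quartile scaling and -0.017 with no filter. For the hypoxia response, Bid in WT was -0.044 with library size alone and -0.014 with no filter, and Bcl2 in TAZKo was -0.04 with library size alone and -0.007 with lane as a covariate. When a library was left out, genotype differences in normoxia ran from -0.044 to 0.044 for Bcl2l1, -0.011 to 0.113 for Bid, -0.254 to 0.012 for Bad and -0.313 to 0.047 for Pmaip1. In hypoxia they ran from -0.034 to 0.078 for Bax and -0.136 to 0.012 for Bad. Hypoxia responses ran from -0.047 to 0.096 for Bid and -0.027 to 0.316 for Pmaip1 in WT, and from -0.001 to 0.055 for Bcl2 in TAZKo. The interaction of Bad ran from -0.079 to 0.182. Depth was lowest for Bbc3, down to 76 counts in a library, and standard errors were widest for Pmaip1 (0.311 in the interaction).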
